A study of Homo sapiens with 14 samples.

Results

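The genes described here are 37 members of the NF-kB system: 5 subunits, 6 members of the IkB family, 11 adaptors and kinases, 5 ubiquitin editors with their partners, and 10 other target genes. They were chosen by symbol from the 58051 genes of the deposited tables, and all 37 were found in both tables. Their transcripts were followed after knockdown of ZBP1, an interferon-inducible protein that binds left-handed Z-RNA and Z-DNA, in 2 human multiple myeloma lines, MM1.S and H929. Myeloma is a cancer of plasma cells. The MM1.S groups were shRNA1 against ZBP1, shRNA2 against ZBP1, and a scramble control shared by both hairpins. The H929 groups were shRNA1, the scramble control labelled for shRNA1, shRNA2, and the scramble control labelled for shRNA2. Each of the 7 groups had 2 libraries of poly(A)-selected RNA, 14 in all. All cells, controls included, had been transduced with lentivirus, and the labels do not say whether they were clones or pools. Whether the 2 libraries of a group were separate cultures is not stated. The p-values therefore cover library-to-library spread alone, and this may be technical.

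NF-kB transcription factors are dimers of RelA, RelB, c-Rel and the processed products of NFKB1 and NFKB2. In resting cells IkB proteins hold the dimers in the cytoplasm. In the canonical pathway, receptors act through TRAF adaptors, TAK1 and the IKK complex to remove IkB. In the noncanonical pathway, the kinase NIK, encoded by MAP3K14, drives processing of the NFKB2 precursor. The dimers induce genes of their own inhibitors, such as NFKBIA and TNFAIP3, and cytokine, adhesion and survival genes. Myeloma cells often carry mutations in TRAF3, BIRC3, CYLD and other genes of the noncanonical pathway.

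The promoter windows of 6 members that the results turn on are shown because each holds letters matching the kappa-B motif, the 10-base sequence bound by NF-kB dimers. The windows are RefSeq sequences of GRCh38.p14, 250 bases before to 50 bases after an annotated start, written 5′ to 3′ on the gene's strand. Capitals mark every match to the motif on either strand, with overlapping matches joined. REL lies at chr2:60881324-60881623 (plus strand), NFKB2 at chr10:102394328-102394627 (plus strand), NFKBIA at chr14:35404700-35404999 (minus strand), BIRC3 at chr11:102317234-102317533 (plus strand), TNFAIP3 at chr6:137867009-137867308 (plus strand) and LTB at chr6:31582376-31582675 (minus strand).
REL: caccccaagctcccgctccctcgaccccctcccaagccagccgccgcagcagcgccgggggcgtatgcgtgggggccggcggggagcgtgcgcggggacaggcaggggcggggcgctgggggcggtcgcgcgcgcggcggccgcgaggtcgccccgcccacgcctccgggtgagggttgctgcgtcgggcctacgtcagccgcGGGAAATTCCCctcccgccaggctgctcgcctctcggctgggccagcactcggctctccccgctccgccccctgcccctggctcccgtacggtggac
NFKB2: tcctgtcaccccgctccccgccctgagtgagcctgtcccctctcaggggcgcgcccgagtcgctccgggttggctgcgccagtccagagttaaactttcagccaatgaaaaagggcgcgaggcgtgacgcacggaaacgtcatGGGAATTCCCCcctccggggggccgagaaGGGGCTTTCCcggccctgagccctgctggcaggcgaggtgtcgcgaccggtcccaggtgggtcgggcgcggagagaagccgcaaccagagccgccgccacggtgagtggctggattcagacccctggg
NFKBIA: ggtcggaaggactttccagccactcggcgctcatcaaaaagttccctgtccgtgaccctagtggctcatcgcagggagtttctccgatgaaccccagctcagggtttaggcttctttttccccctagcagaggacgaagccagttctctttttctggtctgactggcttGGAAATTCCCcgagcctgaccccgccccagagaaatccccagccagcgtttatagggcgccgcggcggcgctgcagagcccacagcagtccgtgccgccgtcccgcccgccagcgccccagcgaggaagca
BIRC3: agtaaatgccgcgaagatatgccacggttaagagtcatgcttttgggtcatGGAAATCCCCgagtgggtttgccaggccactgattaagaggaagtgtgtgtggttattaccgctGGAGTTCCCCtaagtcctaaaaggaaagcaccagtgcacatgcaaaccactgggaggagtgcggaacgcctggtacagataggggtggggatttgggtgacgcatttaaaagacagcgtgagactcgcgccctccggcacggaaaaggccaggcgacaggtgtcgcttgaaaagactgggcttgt
TNFAIP3: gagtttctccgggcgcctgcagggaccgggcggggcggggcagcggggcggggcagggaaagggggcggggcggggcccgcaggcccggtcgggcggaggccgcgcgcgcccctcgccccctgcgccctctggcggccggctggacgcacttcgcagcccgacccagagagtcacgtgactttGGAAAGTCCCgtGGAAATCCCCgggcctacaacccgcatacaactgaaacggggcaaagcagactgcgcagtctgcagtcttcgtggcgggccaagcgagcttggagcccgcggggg
LTB: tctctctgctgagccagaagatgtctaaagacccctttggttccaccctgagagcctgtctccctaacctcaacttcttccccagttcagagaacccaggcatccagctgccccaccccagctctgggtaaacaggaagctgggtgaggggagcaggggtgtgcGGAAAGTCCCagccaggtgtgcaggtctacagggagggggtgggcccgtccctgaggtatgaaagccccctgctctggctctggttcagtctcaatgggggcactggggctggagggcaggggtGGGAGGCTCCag
Of the 31 members with a window in the table, 17 (54.8%) held the motif in at least 1 window, against 3619 of 27305 genes (13.3%). Counted by window, 22 of 53 member windows (41.5%) held it, against 3956 of 35116 windows of all genes (11.3%). All 5 IkB family genes with a window held it, as did 3 of 4 subunits, 3 of 9 adaptors and kinases, 3 of 5 ubiquitin editors and 3 of 8 targets. No window of RELA, CHUK, MAP3K14, MAP3K7, TRAF1, TRAF2, TRAF6, OTULIN, SPATA2, CCL3, ICAM1, SOD2, TNF or TNFAIP2 held it. Another NFKB2 window, chr10:102393860-102394159, also lacked it. A match describes these letters only. RELB, NFKBIE, IKBKB, CCL4, CD40 and MMP9 had no window in the table.

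MM1.S libraries held 20461980 to 28419331 reads in genes and H929 libraries 15926867 to 22254348. ZBP1 itself was reduced to 18.5% (shRNA1) and 12.4% (shRNA2) of its scramble level in MM1.S, and to 45.1% (shRNA1) and 36.3% (shRNA2) in H929. The 8 plasma cell markers summed to 3625.8 to 3789.0 CPM with shRNA1 and 2947.5 to 3003.9 CPM with shRNA2 in MM1.S, against 5054.7 to 5275.4 CPM in scramble. In H929 they summed to 5618.4 to 5850.9 CPM with shRNA1, against 6289.5 to 6354.0 CPM in its scramble, and to 4901.6 to 5087.9 CPM with shRNA2, against 6036.5 to 6214.1 CPM in its scramble. At an adjusted p under 0.05, 1 of the 8 was higher and 5 lower with shRNA1 in MM1.S (17.8% and 19.7% of all genes). With shRNA2 there 0 were higher and 8 lower (14.9% and 21.7%). For H929 3 were higher and 5 lower with shRNA1 (25.7% and 27.7%), and 0 higher and 5 lower with shRNA2 (18.0% and 25.0%). The mitochondrial share of reads was 11.6% to 12.1% in MM1.S knockdown libraries, against 9.87% to 10.2% in scramble. In H929 it was 6.34% and 5.98% with shRNA1, against 7.22% and 6.63% in its scramble, and 8.80% and 8.72% with shRNA2, against 7.12% and 6.84% in its scramble. The part of both in the results below was not tested. MAF, a translocation gene of MM1.S, had 39249 to 60983 reads there. FGFR3, a translocation gene of H929, had 5340 to 21755 reads in H929 and 3 to 21 in MM1.S. Within H929 it had 6731 and 5340 reads with shRNA1 against 19359 and 20153 in its scramble, and 19058 and 21755 with shRNA2 against 7608 and 8347 in its scramble, so each hairpin group lay near the scramble labelled for the other hairpin. An annotated neighbour overlaps 16 of the 37 members, in 11 cases from the other strand. The sources used here do not say whether counting used strand. Levels of 1 gene across libraries are in CPM, its reads scaled to the library's total, and levels between genes are in RPKM, which also adjusts for exon length. Fold changes are log2 ± standard error (SE), and a gene was called at an adjusted p under 0.05 over all genes tested. The SE of limma is that of its fit, and that of edgeR was derived from the fold change and the F statistic of its test. The fits scale the libraries differently from CPM. For members at 5 CPM or more, the log2 ratio of mean CPM lay above the tested value by a median of 0.12 and 0.10 in MM1.S (shRNA1 and shRNA2), 0.16 with each hairpin in H929, and 0.12 between the H929 scramble groups. Small differences in CPM are therefore read from the tested values, and no called member had the other sign in CPM.

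In MM1.S, the NF-kB genes were mostly higher after knockdown with shRNA1, and with shRNA2 the change was smaller and in both directions. With shRNA1, 20 of 35 members tested were called higher and 0 lower by edgeR, where 17.8% of all 17820 genes were called higher and 19.7% lower. At an unadjusted p under 0.05, 3 members were lower (OTULIN, CCL3 and SOD2), and DESeq2 called 1 lower, CCL3. The 20 comprised 3 of 5 subunits, 4 of 6 IkB family members, 7 of 11 adaptors and kinases and 6 of 8 targets, and 0 of the 5 ubiquitin editors, of which 1 was higher and 1 lower at an unadjusted p under 0.05 and DESeq2 called 0. The median log2 fold change of the members was 0.63, against 0.00 for all genes. With shRNA2, 11 members were called higher and 5 lower, where 14.9% of all genes were called higher and 21.7% lower. The members' median was 0.17, against -0.03 for all genes. Set directly against shRNA2, shRNA1 gave 15 members higher and 2 lower, where 20.4% of all genes were called higher and 16.4% lower. The 2 hairpin comparisons share their scramble libraries, so their values are given side by side.

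Of the 20 calls with shRNA1, 16 held without any 1 of the 4 libraries. Of the 16 with shRNA2, 8 did: the count higher was 7 without scramble replicate 1, shRNA2 replicate 1 or shRNA2 replicate 2, and the count lower was 3, 2 and 3 without them. DESeq2 did not call TRAF6 and CD83 with shRNA1 or LTB with shRNA2. With only the compared groups in the fit, edgeR no longer called TRAF6 with shRNA1, nor LTB and ICAM1 with shRNA2. MM1.S libraries of the same replicate number deviated together. With the number as a block, edgeR called 25 members higher and 6 lower with shRNA1 (28.4% and 30.9% of all genes). For shRNA2 it called 16 higher and 9 lower (26.8% and 32.0% of all genes). RELA, NFKBIB, MAP3K7, OTULIN, CCL3 and SOD2 were the 6 called lower with shRNA1. Between hairpins the block gave 21 higher and 5 lower (29.6% and 28.7% of all genes), and TRAF6, TNIP1 and SPATA2 joined the lower calls.

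In H929 the hairpins gave different pictures. With shRNA1, limma called 14 of 34 members tested higher and 5 lower, where 25.7% of all 18213 genes were called higher and 27.7% lower. With shRNA2, it called 7 higher and 9 lower, where 18.0% of all genes were called higher and 25.0% lower, so that the members' share of calls stood near that of all genes. The members' medians were 0.16 and 0.00, against -0.01 and -0.02 for all genes. The test of the difference between the hairpin effects called 11 members higher with shRNA1 and 3 lower, where 21.9% and 20.0% of all genes were called. The 3 lower were NFKB2 (-0.68 ± 0.14, limma adjusted p = 8.5e-04), RELA (-0.63 ± 0.13, limma adjusted p = 8.0e-04) and TNIP1 (-0.43 ± 0.15, limma adjusted p = 0.0283), the last lost without scramble for shRNA2 replicate 1, shRNA2 replicate 1 or 2, scramble for shRNA1 replicate 2 or shRNA1 replicate 2 (-0.46 to -0.30, limma adjusted p = 0.0661 to 0.144). Mean NFKB2 was 250 CPM with shRNA1 and 222 CPM with shRNA2, against 275 and 153 CPM in their scrambles. TNIP1 had 139 and 134 CPM, against 157 and 112 CPM, and RELA 94.9 and 112 CPM, against 121 and 91.9 CPM. In each of these genes the scramble groups lay further apart than the hairpin groups. BIRC3 (2.35), TNFAIP2 (2.25), MAP3K14 (1.90) and CCL4 (1.86) were furthest above 0. The higher calls of TRAF2 and CHUK were lost without some libraries, at 0.48 and 0.46 over all of them. By role, 7 of 11 adaptors and kinases were called higher with shRNA1. With shRNA2, limma called 4 of 7 targets lower and 0 higher, with 0 higher at an unadjusted p under 0.05 and 0 by edgeR on recovered reads. Of the calls, 12 of 19 with shRNA1 and 8 of 16 with shRNA2 held without any 1 library. With shRNA2, the count higher was 4 without scramble replicate 1 and the count lower was 5 without scramble replicate 2. With no filter on low values, limma no longer called NFKB2, RELB, TNIP1, SPATA2 and EBI3 with shRNA1, nor NFKB1, REL, CD40 and SOD2 with shRNA2.

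**Figure D1:**
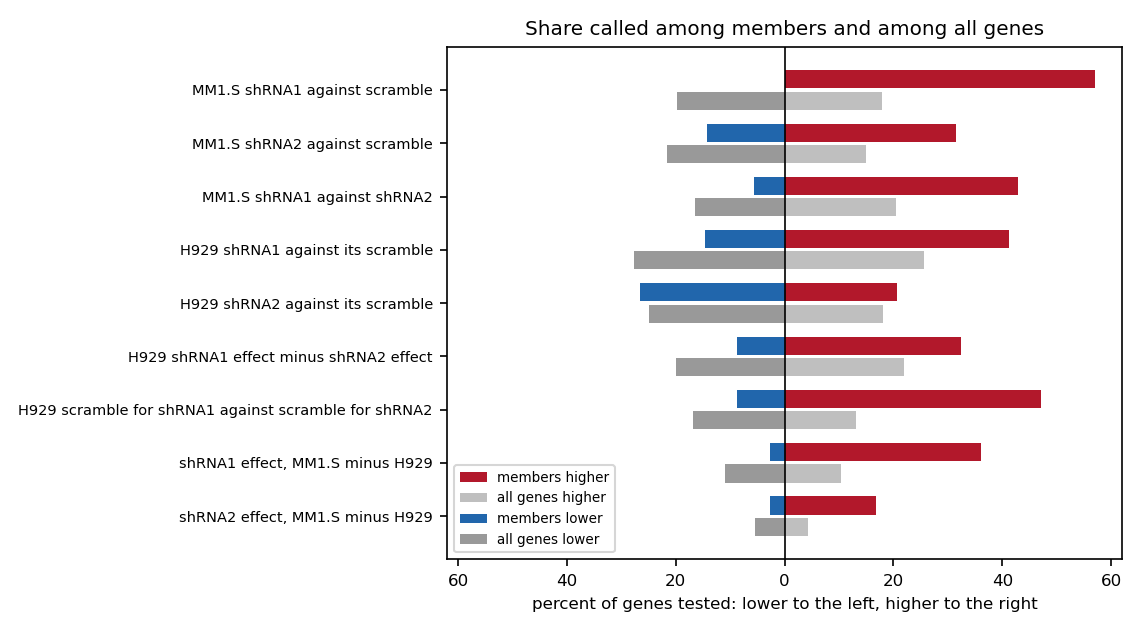
Share of members (red and blue bars) and of all genes (grey bars) called at an adjusted p under 0.05 in each comparison, as a percent of the genes tested, with higher calls to the right and lower calls to the left. With shRNA1 in MM1.S 57.1% of the members were called higher, against 17.8% of all genes, and with shRNA2 in H929 the member and background bars are of similar length.

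The H929 scramble groups, both controls, also differed from each other in NF-kB genes. Of 34 members, 16 were called higher and 3 lower in the scramble for shRNA1 than in the scramble for shRNA2 by limma, where 13.1% and 16.8% of all genes were called. NFKB2 had 288 and 262 CPM in the scramble for shRNA1, against 142 and 164 CPM in the scramble for shRNA2, a difference of 0.73 ± 0.10 (limma adjusted p = 5.3e-05). RELB had 86.8 and 86.1 CPM in the scramble for shRNA1, against 38.3 and 48.9 CPM in the scramble for shRNA2, a difference of 0.88 ± 0.13 (limma adjusted p = 9.9e-05). BCL3 differed by 0.69 ± 0.09 (limma adjusted p = 4.4e-05) and BIRC3 by 0.87 ± 0.16 (limma adjusted p = 8.7e-04). In each of the 4 genes both libraries of the scramble for shRNA1 lay above both of the scramble for shRNA2. SOD2, a mitochondrial antioxidant enzyme, ran the other way (-0.48 ± 0.09, limma adjusted p = 0.00106), as did REL (-0.54 ± 0.13, limma adjusted p = 0.00614) and CHUK (-0.39 ± 0.10, limma adjusted p = 0.00655). Of the 19 calls, 11 held without any 1 library, and that of REL was lost without scramble for shRNA2 replicate 1 or scramble for shRNA1 replicate 2 (-0.53 to -0.29, limma adjusted p = 0.0542 to 0.118). Set against the scramble of the other hairpin, a choice made after seeing the data, shRNA1 gave 16 members higher and 8 lower (31.3% and 32.4% of all genes). Likewise, shRNA2 gave 4 higher and 16 lower (17.6% and 21.9% of all genes). The H929 values below are against the scramble labelled for each hairpin, and calls that the other scramble ended or turned are named with them.

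**Figure D2:**
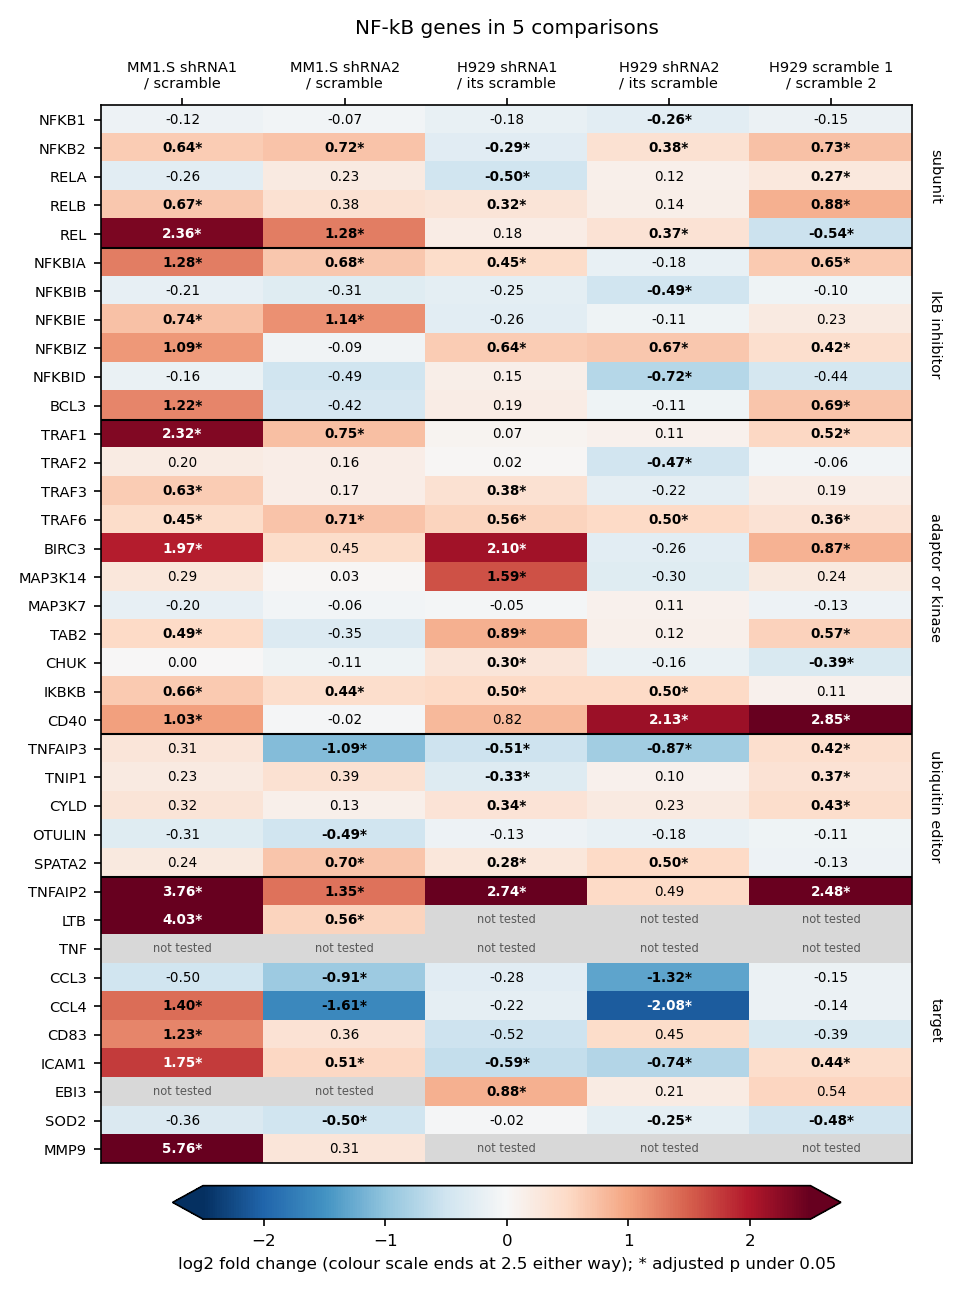
Log2 fold change of each of the 37 members, ordered by role, in the 4 hairpin comparisons and between the H929 scramble groups (scramble 1 is the one for shRNA1), with red for higher, blue for lower, and a star where the adjusted p was under 0.05. The MM1.S shRNA1 column holds 20 starred red cells and no starred blue cell, and only TRAF6 and IKBKB are starred red in all 4 hairpin columns.

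Among the subunits, REL, which encodes c-Rel, rose most in MM1.S, and NFKB2 rose with both hairpins there. REL had 14.3 and 12.7 CPM with shRNA1 and 7.28 and 5.42 CPM with shRNA2, against 2.02 and 2.81 CPM in scramble libraries. All shRNA1 libraries lay above all shRNA2 libraries, and these above both scramble libraries. The gene was low per length, at 0.519% ± 0.0822 of the summed subunit RPKM with shRNA1, against 0.138% ± 0.0136 in scramble cells (SD, n = 2 each). REL rose by 2.36 ± 0.23 (edgeR adjusted p = 2.2e-04) with shRNA1 and 1.28 ± 0.23 (edgeR adjusted p = 0.00372) with shRNA2. The hairpins differed by 1.08 ± 0.21 (edgeR adjusted p = 0.00597). That last call was lost without shRNA2 replicate 2 (0.90, edgeR adjusted p = 0.0560). In H929, where REL was more abundant, it had 35.7 and 35.0 CPM with shRNA1, against 33.8 and 23.3 CPM in its scramble libraries (0.18 ± 0.13, limma adjusted p = 0.283), and the sets did not overlap. It had 50.5 and 58.4 CPM with shRNA2, against 38.8 and 36.6 CPM in its scramble libraries, a rise of 0.37 ± 0.13 (limma adjusted p = 0.0355) that was lost without any 1 of the 4 libraries (0.28 to 0.46, limma adjusted p = 0.0589 to 0.248). Against the other scramble group shRNA1 stood at -0.37 (limma adjusted p = 0.0251).

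NFKB2, the precursor of the noncanonical subunit, was the most abundant subunit per length, with 61.9% ± 0.683 of the summed subunit RPKM with shRNA1 and 63.6% ± 0.0678 with shRNA2 in MM1.S, against 55.3% ± 0.235 in scramble cells (SD, n = 2 each). It had 527 and 574 CPM with shRNA1 and 552 and 601 CPM with shRNA2, against 296 and 357 CPM in scramble libraries. Both knockdown groups lay above the scramble libraries, with a rise of 0.64 ± 0.14 (edgeR adjusted p = 0.00814) for shRNA1. The rise for shRNA2 was 0.72 ± 0.14 (edgeR adjusted p = 0.00510). In H929, NFKB2 had 262 and 239 CPM with shRNA1, against 288 and 262 CPM in its scramble libraries (-0.29 ± 0.10, limma adjusted p = 0.0173). Both shRNA1 libraries lay below both scramble libraries, replicate 1 only just. The call was lost without scramble replicate 1 or shRNA1 replicate 2 (-0.25 to -0.20, limma adjusted p = 0.105 to 0.123). NFKB2 had 221 and 224 CPM with shRNA2, against 142 and 164 CPM in its scramble libraries (0.38 ± 0.10, limma adjusted p = 0.00455), a rise that was lost without scramble replicate 1 (0.25, limma adjusted p = 0.0743). Both H929 directions turned with the choice of scramble group: shRNA1 stood at 0.43 (limma adjusted p = 9.6e-04) and shRNA2 at -0.34 (limma adjusted p = 0.0101) against the other one.

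RELB, the usual partner of processed NFKB2, had 114 and 140.5 CPM with shRNA1 and 94.8 and 110.4 CPM with shRNA2, against 62.6 and 85.0 CPM in scramble libraries. Each knockdown library lay above both scramble libraries. The rise was 0.67 ± 0.18 (edgeR adjusted p = 0.0231) with shRNA1, lost without scramble replicate 1 or shRNA1 replicate 2 (0.48 to 0.54, edgeR adjusted p = 0.0817 to 0.0973), and the value with shRNA2 was 0.38 ± 0.18 (edgeR adjusted p = 0.145), or 0.38 (edgeR adjusted p = 1.4e-04) with the replicate block. In H929, RELB had 133 and 109 CPM with shRNA1, against 86.8 and 86.1 CPM in its scramble libraries (0.32 ± 0.13, limma adjusted p = 0.0407), and the call was lost without scramble replicate 1 or 2 or shRNA1 replicate 1 (0.16 to 0.33, limma adjusted p = 0.0908 to 0.354). It had 51.2 and 55.5 CPM with shRNA2, against 38.3 and 48.9 CPM in its scramble libraries (0.14 ± 0.13, limma adjusted p = 0.382), and -0.73 (limma adjusted p = 2.7e-04) against the other scramble group. RELA, the main transactivating subunit of the canonical pathway, had 79.7 to 123 CPM over the MM1.S libraries. RELA was called in neither MM1.S hairpin comparison (-0.26 ± 0.15 and 0.23 ± 0.15). With the block, edgeR gave -0.26 (edgeR adjusted p = 0.00208) for shRNA1 and 0.23 (edgeR adjusted p = 0.00340) for shRNA2. With shRNA1 RELA was lower than with shRNA2 (-0.49 ± 0.15, edgeR adjusted p = 0.0340), a call lost without any 1 of the 4 libraries (-0.59 to -0.40, edgeR adjusted p = 0.0555 to 0.195). In H929 it fell with shRNA1, to 95.4 and 94.4 CPM against 119 and 122 CPM in its scramble libraries (-0.50 ± 0.09, limma adjusted p = 1.6e-04). NFKB1, the precursor of the canonical DNA-binding subunit, had 106 to 114 CPM in MM1.S and 39.9 to 45.6 CPM in H929, the narrowest of the 5 subunits within each line as a ratio of highest to lowest. Its only call was with shRNA2 in H929 (-0.26 ± 0.09, limma adjusted p = 0.0332), and it was lost without any 1 of the 4 libraries (-0.30 to -0.22, limma adjusted p = 0.0847 to 0.219). Against the other scramble group shRNA2 gave -0.11 (limma adjusted p = 0.378) and shRNA1 gave -0.33 (limma adjusted p = 0.00521).

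**Figure D3:**
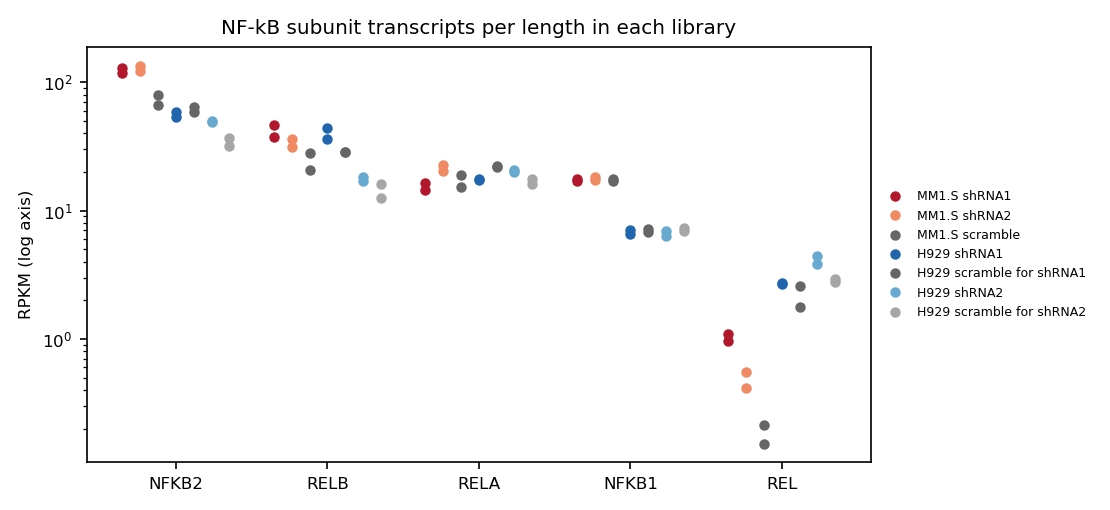
RPKM of the 5 subunit genes in each of the 14 libraries (points, log axis), coloured by group, with MM1.S groups left of H929 groups within each gene. NFKB2 lies highest and REL lowest in every library, and the MM1.S shRNA1 and shRNA2 points of NFKB2 and REL lie above their scramble points.

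The IkB family genes were called higher in MM1.S in 4 of 6 cases with shRNA1 and 2 of 6 with shRNA2. Over all genes, 17.8% were called higher with shRNA1 and 14.9% with shRNA2. NFKBIA, the classical inhibitor and itself an NF-kB target, had 78.9 and 67.8 CPM with shRNA1 and 49.6 and 46.4 CPM with shRNA2, against 26.4 and 29.2 CPM in scramble libraries. It rose by 1.28 ± 0.13 (edgeR adjusted p = 2.6e-04) with shRNA1 and by 0.68 ± 0.13 (edgeR adjusted p = 0.00464) with shRNA2, with no overlap between the 3 groups. The hairpins differed by 0.60 ± 0.13 (edgeR adjusted p = 0.00785), a call lost without shRNA1 replicate 1 or shRNA2 replicate 1 or 2 (0.50 to 0.61, edgeR adjusted p = 0.0560 to 0.0694). In H929, NFKBIA had 100.1 and 114 CPM with shRNA1, against 74.2 and 66.2 CPM in its scramble libraries, and rose by 0.45 ± 0.10 (limma adjusted p = 0.00148). It had 39.2 and 41.3 CPM with shRNA2, against 38.5 and 43.6 CPM in its scramble libraries, overlapping sets (-0.18 ± 0.10, limma adjusted p = 0.155), and -0.84 (limma adjusted p = 1.1e-05) against the other scramble group. NFKBIE, an inhibitor that retains c-Rel and RelA dimers, had 36.7 and 40.1 CPM with shRNA1 and 49.1 and 51.1 CPM with shRNA2, against 19.6 and 22.9 CPM in scramble libraries. It rose by 0.74 ± 0.14 (edgeR adjusted p = 0.00440) with shRNA1 and by 1.14 ± 0.14 (edgeR adjusted p = 6.5e-04) with shRNA2. NFKBIE was higher with shRNA2 than with shRNA1 in every library (-0.40 ± 0.13, edgeR adjusted p = 0.0499), a call lost without any 1 of the 4 libraries (-0.47 to -0.32, edgeR adjusted p = 0.101 to 0.260). In H929, NFKBIE had 6.71 and 7.72 CPM with shRNA1, against 8.59 and 6.94 CPM in its scramble libraries. NFKBIE stood at 5.96 and 6.56 CPM with shRNA2, against 5.86 and 6.25 CPM in its scramble libraries. Both pairs of groups overlapped, and no hairpin call was made (-0.26 ± 0.17 for shRNA1 and -0.11 ± 0.17 for shRNA2).

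The nuclear IkB proteins NFKBIZ and BCL3 act as cofactors of NF-kB at its target genes. NFKBIZ had 38.9 and 33.3 CPM with shRNA1 and 17.1 and 14.4 CPM with shRNA2, against 14.7 and 16.5 CPM in scramble libraries. It rose with shRNA1 (1.09 ± 0.15, edgeR adjusted p = 0.00106), while the shRNA2 libraries overlapped the scramble libraries (-0.09 ± 0.15, edgeR adjusted p = 0.667). The hairpins of MM1.S differed by 1.18 ± 0.15 (edgeR adjusted p = 9.2e-04). In H929, NFKBIZ had 39.7 and 35.0 CPM with shRNA1, against 23.4 and 19.4 CPM in its scramble libraries. NFKBIZ stood at 25.3 and 27.0 CPM with shRNA2, against 17.2 and 12.6 CPM in its scramble libraries. Neither hairpin group overlapped its scramble group, with rises of 0.64 ± 0.14 (limma adjusted p = 0.00105) for shRNA1 and 0.67 ± 0.14 (limma adjusted p = 0.00114) for shRNA2. Against the other scramble group the shRNA2 value was 0.25 (limma adjusted p = 0.169). BCL3 had 37.7 and 50.0 CPM with shRNA1 and 12.8 and 15.2 CPM with shRNA2, against 14.7 and 20.2 CPM in scramble libraries, and rose with shRNA1 (1.22 ± 0.21, edgeR adjusted p = 0.00342) but not with shRNA2 (-0.42 ± 0.22, edgeR adjusted p = 0.165), where the block gave -0.41 (edgeR adjusted p = 0.00180). The hairpins differed by 1.63 ± 0.22 (edgeR adjusted p = 0.00113). In H929, BCL3 had 171 and 158 CPM with shRNA1, against 127 and 131 CPM in its scramble libraries (0.19 ± 0.09, limma adjusted p = 0.0818). BCL3 stood at 71.5 and 80.5 CPM with shRNA2, against 73.4 and 73.4 CPM in its scramble libraries (-0.11 ± 0.09, limma adjusted p = 0.353). The other scramble group gave calls in opposite directions, 0.89 (limma adjusted p = 2.9e-07) for shRNA1 and -0.80 (limma adjusted p = 5.2e-06) for shRNA2. NFKBIB, a second cytoplasmic inhibitor, ranged over 32.5 to 50.1 CPM in MM1.S and 21.0 to 30.1 CPM in H929, and NFKBID, a nuclear member, over 3.33 to 5.18 CPM and 5.34 to 9.61 CPM. Both fell with shRNA2 in H929, NFKBIB with -0.49 ± 0.13 (limma adjusted p = 0.00584) and NFKBID with -0.72 ± 0.18 (limma adjusted p = 0.00395). These calls were lost without scramble replicate 2 (-0.29, limma adjusted p = 0.106) for NFKBIB and without shRNA2 replicate 1 (-0.54, limma adjusted p = 0.0764) for NFKBID, which the other scramble group also ended (-0.28, limma adjusted p = 0.233). In MM1.S both were called lower with shRNA2 under the block, NFKBIB at -0.30 (edgeR adjusted p = 0.00276) and NFKBID at -0.50 (edgeR adjusted p = 0.0254), and NFKBIB also with shRNA1 (-0.20, edgeR adjusted p = 0.0224). NFKBID also differed between the H929 hairpin effects (0.86 ± 0.25, limma adjusted p = 0.0112), a call lost without shRNA2 replicate 1 or scramble for shRNA2 replicate 2 (0.69 to 0.77, limma adjusted p = 0.0525 to 0.0749).

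Among the adaptors, TRAF1 and BIRC3, both known NF-kB targets, rose most with shRNA1 in MM1.S. TRAF1, an adaptor of TNF receptors, had 42.5 and 46.7 CPM with shRNA1 and 15.6 and 14.3 CPM with shRNA2, against 7.59 and 8.87 CPM in scramble libraries. The 3 groups did not overlap, and TRAF1 rose by 2.32 ± 0.15 (edgeR adjusted p = 4.7e-05) with shRNA1 and 0.75 ± 0.15 (edgeR adjusted p = 0.00588) with shRNA2, a difference between hairpins of 1.57 ± 0.14 (edgeR adjusted p = 2.8e-04). In H929, TRAF1 had 30.3 and 30.1 CPM with shRNA1, against 23.9 and 27.8 CPM in its scramble libraries (0.07 ± 0.12, limma adjusted p = 0.669). TRAF1 stood at 20.8 and 19.1 CPM with shRNA2, against 15.7 and 17.4 CPM in its scramble libraries (0.11 ± 0.12, limma adjusted p = 0.487). Neither H929 value was called, and against the other scramble group they were 0.59 (limma adjusted p = 5.8e-04) for shRNA1 and -0.41 (limma adjusted p = 0.0157) for shRNA2. BIRC3, a ubiquitin ligase that works with TRAF2 and TRAF3 to degrade NIK, had 769.7 and 542 CPM with shRNA1 and 267 and 186 CPM with shRNA2, against 175 and 133 CPM in scramble libraries. Every knockdown library lay above both scramble libraries, the shRNA1 libraries furthest, at 1.97 ± 0.23 (edgeR adjusted p = 6.0e-04). The shRNA2 value was 0.45 ± 0.23 (edgeR adjusted p = 0.160). It was called with the block (0.44, edgeR adjusted p = 4.9e-05). The hairpins of MM1.S differed by 1.52 ± 0.23 (edgeR adjusted p = 0.00201). In H929, BIRC3 had 51.5 and 63.7 CPM with shRNA1, against 14.3 and 10.0 CPM in its scramble libraries (2.10 ± 0.16, limma adjusted p = 2.4e-08). BIRC3 stood at 5.45 and 5.80 CPM with shRNA2, against 5.92 and 6.13 CPM in its scramble libraries (-0.26 ± 0.16, limma adjusted p = 0.217). The H929 effects of the hairpins differed by 2.35 ± 0.23 (limma adjusted p = 9.0e-07). Against the other scramble group, shRNA2 stood at -1.12 (limma adjusted p = 5.8e-05).

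**Figure D4:**
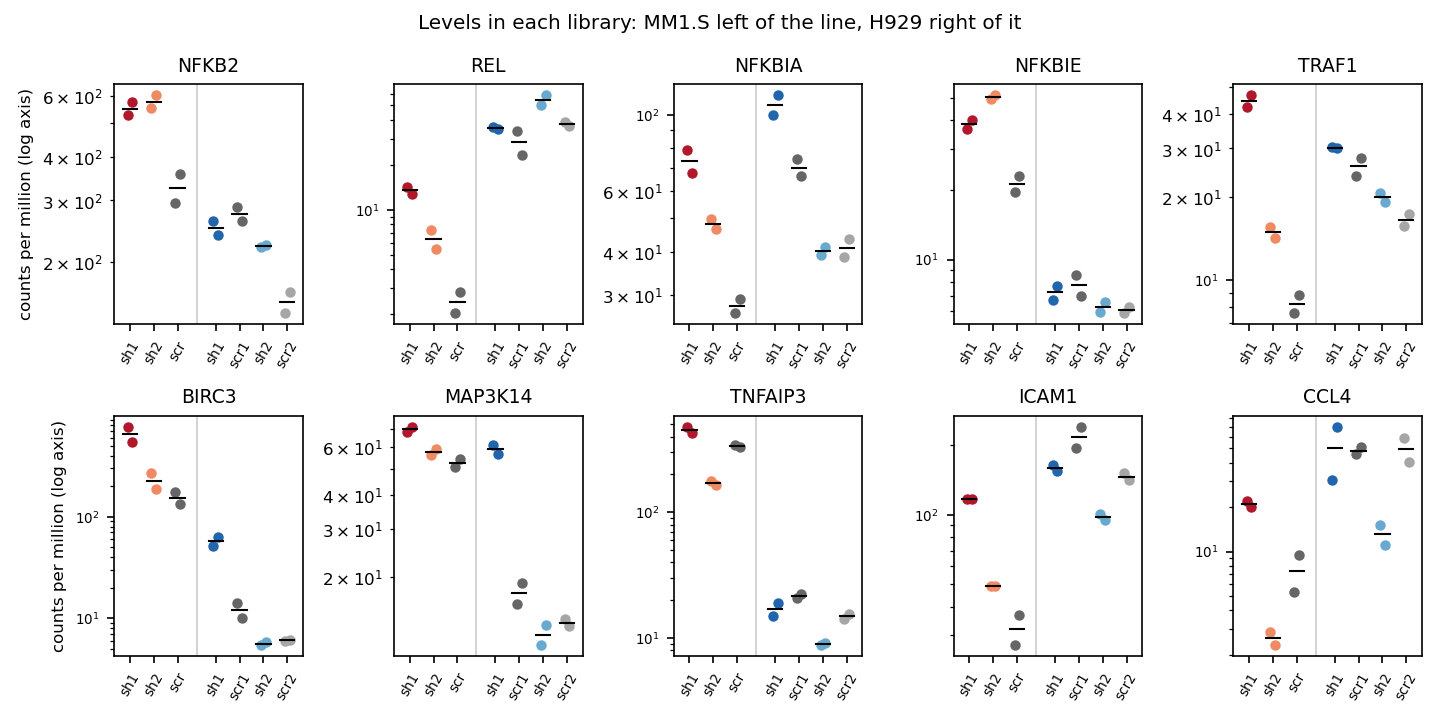
CPM (log axis) of 10 members in each library, with a bar at the mean of each pair; sh1 and sh2 are the hairpins, scr the MM1.S scramble, and scr1 and scr2 the H929 scrambles for shRNA1 and shRNA2. REL, NFKBIA, TRAF1 and ICAM1 step down from shRNA1 to shRNA2 to scramble in MM1.S, MAP3K14 is high in H929 with shRNA1 alone, and the H929 scr1 points lie above the scr2 points in NFKB2, BIRC3 and NFKBIA.

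MAP3K14, encoding NIK, moved in H929 with shRNA1. It had 61.1 and 56.6 CPM with shRNA1, against 16.0 and 19.0 CPM in its scramble libraries, and rose by 1.59 ± 0.13 (limma adjusted p = 4.7e-08). It had 11.3 and 13.4 CPM with shRNA2, against 14.04 and 13.2 CPM in its scramble libraries (-0.30 ± 0.13, limma adjusted p = 0.0706). Against the other scramble group shRNA2 gave -0.54 (limma adjusted p = 0.00378). In MM1.S it had 68.5 and 71.2 CPM with shRNA1 and 56.3 and 59.2 CPM with shRNA2, against 50.8 and 54.4 CPM in scramble libraries. The knockdown libraries lay above the scramble libraries, but neither shRNA1 (0.29 ± 0.12, edgeR adjusted p = 0.0855) nor shRNA2 (0.03 ± 0.12, edgeR adjusted p = 0.853) gave a call. With the block shRNA1 gave 0.29 (edgeR adjusted p = 8.7e-04). Of 4 stromal markers, the collagen gene COL1A1 moved with this H929 group, with 638 and 468 reads with shRNA1 against 18 and 15 in its scramble, while PDGFRB had 1 and 7 against 3 and 9, and COL1A2 and COL3A1 had at most 2 in any H929 library. The 4 summed to 29.8 to 35.0 CPM with shRNA1, against 1.24 to 1.38 CPM in its scramble. The 4 epithelial markers summed to 26.6 to 28.4 CPM with shRNA1, against 14.3 to 17.0 CPM in its scramble: the keratin gene KRT8 had 138 and 103 reads with shRNA1 against 38 and 58, KRT18 had 344 and 348 against 202 and 234, and EPCAM and CDH1 had at most 5. The part of these markers in the result was not tested. In bulk RNA, a change in the number of cells of a type and a change of RNA per cell cannot be told apart.

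IKBKB and TRAF6 were the only members called higher in all 4 hairpin comparisons, which is 5.41% of the members. Over all genes 8.549% were called in all 4, but in any mix of directions. The share of all genes called higher in all 4 was not computed, so this count stands without a background. IKBKB, a catalytic kinase of the IKK complex, had 98.1 and 93.5 CPM with shRNA1 and 84.8 and 78.2 CPM with shRNA2, against 53.2 and 58.7 CPM in scramble libraries. In H929, IKBKB had 120.4 and 119 CPM with shRNA1, against 80.9 and 71.1 CPM in its scramble libraries. IKBKB stood at 98.1 and 106 CPM with shRNA2, against 62.2 and 66.95 CPM in its scramble libraries. No knockdown library overlapped its scramble libraries, and the MM1.S rises were 0.66 ± 0.11 (edgeR adjusted p = 0.00315) for shRNA1 and 0.44 ± 0.11 (edgeR adjusted p = 0.0187) for shRNA2. In H929 they were 0.50 ± 0.09 (limma adjusted p = 2.7e-04) for shRNA1 and 0.50 ± 0.09 (limma adjusted p = 4.0e-04) for shRNA2. The MM1.S shRNA2 call was lost without scramble replicate 1 or shRNA2 replicate 1 or 2 (0.38 to 0.47, edgeR adjusted p = 0.0838 to 0.123). TRAF6, the ubiquitin ligase of interleukin-1 and Toll-like receptor signalling, had 27.1 and 23.3 CPM with shRNA1 and 31.6 and 28.0 CPM with shRNA2, against 18.0 and 16.0 CPM in scramble libraries. In H929, TRAF6 had 44.8 and 46.1 CPM with shRNA1, against 28.4 and 26.8 CPM in its scramble libraries. TRAF6 stood at 31.4 and 31.0 CPM with shRNA2, against 20.2 and 19.2 CPM in its scramble libraries. Again no group overlapped its scramble, with rises in MM1.S of 0.45 ± 0.15 (edgeR adjusted p = 0.0432) for shRNA1 and 0.71 ± 0.15 (edgeR adjusted p = 0.00764) for shRNA2. The H929 rises were 0.56 ± 0.10 (limma adjusted p = 1.9e-04) for shRNA1 and 0.50 ± 0.10 (limma adjusted p = 7.9e-04) for shRNA2. The MM1.S calls were lost without any 1 of the 4 libraries (0.35 to 0.59, edgeR adjusted p = 0.0515 to 0.197) for shRNA1 and without shRNA2 replicate 1 (0.65, edgeR adjusted p = 0.0648) for shRNA2, and the H929 shRNA2 value was 0.14 (limma adjusted p = 0.300) against the other scramble group.

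TAB2, which couples TAK1 to ubiquitin chains, had 74.5 and 63.2 CPM with shRNA1 and 42.4 and 34.2 CPM with shRNA2, against 48.0 and 42.2 CPM in scramble libraries. It rose with shRNA1 (0.49 ± 0.15, edgeR adjusted p = 0.0337), a call lost without shRNA1 replicate 1 or scramble replicate 2 (0.38 to 0.42, edgeR adjusted p = 0.153 to 0.161), and stood at -0.35 ± 0.15 (edgeR adjusted p = 0.106) with shRNA2, or -0.35 (edgeR adjusted p = 4.3e-04) with the block. The hairpins differed by 0.84 ± 0.15 (edgeR adjusted p = 0.00404). In H929, TAB2 had 92.3 and 91.8 CPM with shRNA1, against 40.8 and 48.5 CPM in its scramble libraries (0.89 ± 0.11, limma adjusted p = 4.8e-06). TAB2 stood at 35.2 and 31.4 CPM with shRNA2, against 28.1 and 26.9 CPM in its scramble libraries (0.12 ± 0.11, limma adjusted p = 0.420). The shRNA2 value was -0.46 (limma adjusted p = 0.00382) against the other scramble group. TRAF3, which holds NIK down, had 130.3 and 125 CPM with shRNA1 and 91.5 and 92.7 CPM with shRNA2, against 75.7 and 76.5 CPM in scramble libraries. Its rise with shRNA1 was 0.63 ± 0.11 (edgeR adjusted p = 0.00339), against 0.17 ± 0.11 (edgeR adjusted p = 0.254) with shRNA2, or 0.17 (edgeR adjusted p = 0.0194) with the block. The hairpins differed by 0.46 ± 0.11 (edgeR adjusted p = 0.0139), a call lost without any 1 of the 4 libraries (0.41 to 0.49, edgeR adjusted p = 0.0555 to 0.120). TRAF3 also rose in H929 with shRNA1, to 114 and 116 CPM against 78.2 and 80.7 CPM in its scramble libraries (0.38 ± 0.09, limma adjusted p = 0.00260). With shRNA2 it had 59.7 and 63.6 CPM against 61.1 and 67.5 CPM (-0.22 ± 0.09, limma adjusted p = 0.0671), or -0.40 (limma adjusted p = 0.00247) against the other scramble group.

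CD40, a receptor of the TNF family that signals through TRAFs, had 25.5 and 26.5 CPM with shRNA1 and 12.1 and 12.8 CPM with shRNA2, against 11.4 and 12.0 CPM in scramble libraries. It rose with shRNA1 (1.03 ± 0.14, edgeR adjusted p = 0.00111), while the shRNA2 libraries lay just above the scramble libraries (-0.02 ± 0.14, edgeR adjusted p = 0.936). In H929 the gene had few reads, 46 and 86 with shRNA1 against 28 and 36 in its scramble, and 16 and 34 with shRNA2 against 1 and 8 in its scramble, and the scramble groups differed by 2.85 ± 0.56 (limma adjusted p = 0.00128). The shRNA1 value was 0.82 ± 0.56 (limma adjusted p = 0.237), or 3.67 (limma adjusted p = 2.8e-05) against the other scramble group. With shRNA2 it was 2.13 ± 0.56 (limma adjusted p = 0.00618), lost without scramble replicate 1 or shRNA2 replicate 2 (1.01 to 1.72, limma adjusted p = 0.0729 to 0.122), and -0.73 (limma adjusted p = 0.330) against the other scramble group. TRAF2, the adaptor shared by both pathways, had 48.3 to 71.4 CPM in MM1.S and 30.7 to 50.1 CPM in H929. It fell with shRNA2 in H929 (-0.47 ± 0.12, limma adjusted p = 0.00441), a call lost without scramble replicate 2 (-0.37, limma adjusted p = 0.0664), and was called in no other hairpin comparison. CHUK, the other catalytic IKK kinase, rose with shRNA1 in H929 (0.30 ± 0.10, limma adjusted p = 0.0156), a call lost without scramble replicate 2 or shRNA1 replicate 2 (0.22 to 0.28, limma adjusted p = 0.0663 to 0.111) and at -0.09 (limma adjusted p = 0.438) against the other scramble group. MAP3K7, encoding TAK1, was called in none of the 4 comparisons, with values between -0.20 and 0.11. With the block, shRNA1 gave -0.20 (edgeR adjusted p = 0.0115) in MM1.S.

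Of the 5 ubiquitin editors and partners, which restrain NF-kB signalling, edgeR called 0 with shRNA1 and 3 with shRNA2 in MM1.S. With the replicate block it called all 5 with shRNA1, 4 of them higher, and 4 with shRNA2, 2 of them higher. Under the block 28.4% of all genes were called higher and 30.9% lower with shRNA1, and 26.8% and 32% with shRNA2. TNFAIP3, a deubiquitinase induced by NF-kB, had 478 and 429.6 CPM with shRNA1 and 177 and 165 CPM with shRNA2, against 345 and 329.7 CPM in scramble libraries. The shRNA1 libraries lay above the scramble libraries (0.31 ± 0.11, edgeR adjusted p = 0.0666, and 0.31, edgeR adjusted p = 6.6e-04 with the block), and the shRNA2 libraries far below them (-1.09 ± 0.12, edgeR adjusted p = 3.8e-04). The MM1.S hairpins differed by 1.40 ± 0.12 (edgeR adjusted p = 2.0e-04). In H929, TNFAIP3 had 15.1 and 19.0 CPM with shRNA1, against 20.9 and 22.4 CPM in its scramble libraries (-0.51 ± 0.14, limma adjusted p = 0.00485). TNFAIP3 stood at 8.84 and 9.21 CPM with shRNA2, against 14.3 and 15.4 CPM in its scramble libraries (-0.87 ± 0.14, limma adjusted p = 8.8e-05). Both fell without overlap. The first call was lost without shRNA1 replicate 1 (-0.37, limma adjusted p = 0.0536) and against the other scramble group (-0.09, limma adjusted p = 0.578). SPATA2, which brings CYLD to receptor complexes, had 21.0 and 28.1 CPM with shRNA1 and 31.2 and 35.8 CPM with shRNA2, against 17.4 and 21.0 CPM in scramble libraries. It rose with shRNA2 (0.70 ± 0.19, edgeR adjusted p = 0.0221), a call lost without scramble replicate 1 or shRNA2 replicate 2 (0.57 to 0.59, edgeR adjusted p = 0.0829 to 0.138), and stood at 0.24 ± 0.19 (edgeR adjusted p = 0.355) with shRNA1, whose lower library lay at the level of the higher scramble library, or 0.23 (edgeR adjusted p = 0.0398) with the block. In H929, SPATA2 had 31.0 and 32.9 CPM with shRNA1, against 24.8 and 22.3 CPM in its scramble libraries (0.28 ± 0.11, limma adjusted p = 0.0450). SPATA2 stood at 37.9 and 36.8 CPM with shRNA2, against 22.0 and 25.5 CPM in its scramble libraries (0.50 ± 0.11, limma adjusted p = 0.00216). Neither overlapped, but the shRNA1 call was lost without any 1 of the 4 libraries (0.23 to 0.34, limma adjusted p = 0.0568 to 0.197), with the replicate block (0.28, limma adjusted p = 0.0536) and against the other scramble group (0.15, limma adjusted p = 0.250).

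TNIP1, a ubiquitin-binding partner of TNFAIP3, had 147 and 166 CPM with shRNA1 and 167 and 180.4 CPM with shRNA2, against 116 and 132 CPM in scramble libraries. Each knockdown library lay above both scramble libraries, with values of 0.23 ± 0.13 (edgeR adjusted p = 0.211) for shRNA1 and 0.39 ± 0.13 (edgeR adjusted p = 0.0510) for shRNA2. Both were called with the block, at 0.23 (edgeR adjusted p = 0.00342) for shRNA1 and 0.39 (edgeR adjusted p = 7.9e-05) for shRNA2. In H929, TNIP1 had 146 and 133 CPM with shRNA1, against 146 and 168 CPM in its scramble libraries (-0.33 ± 0.11, limma adjusted p = 0.0150). The shRNA1 libraries lay below the scramble libraries, replicate 1 only just, and the call was lost without scramble replicate 2 or shRNA1 replicate 2 (-0.24 to -0.21, limma adjusted p = 0.104 to 0.164) and against the other scramble group (0.04, limma adjusted p = 0.759). With shRNA2 it had 130.1 and 138 CPM against 104 and 120.1 CPM (0.10 ± 0.11, limma adjusted p = 0.450). CYLD, a deubiquitinase and tumour suppressor in myeloma, rose with shRNA1 in H929 (0.34 ± 0.09, limma adjusted p = 0.00458) and stood at 0.23 ± 0.09 (limma adjusted p = 0.0530) with shRNA2. In MM1.S, CYLD was at 0.32 ± 0.16 (edgeR adjusted p = 0.160) with shRNA1, or 0.32 (edgeR adjusted p = 4.9e-04) with the block. OTULIN, which removes linear ubiquitin chains, fell with shRNA2 in MM1.S (-0.49 ± 0.13, edgeR adjusted p = 0.0198), a call lost without scramble replicate 1 or shRNA2 replicate 1 or 2 (-0.55 to -0.38, edgeR adjusted p = 0.0767 to 0.142), and with shRNA1 only under the block (-0.31, edgeR adjusted p = 6.9e-04).

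Of the targets, MMP9, LTB and TNFAIP2 had the 3 highest fold changes of all members with shRNA1 in MM1.S. MMP9, a secreted gelatinase, had 20.9 and 24.1 CPM with shRNA1 and 0.482 and 0.522 CPM with shRNA2, against 0.440 and 0.317 CPM in scramble libraries. These were 510 and 494 reads with shRNA1 and 11 and 13 with shRNA2, against 12 and 9 in scramble. It rose by 5.76 ± 0.25 (edgeR adjusted p = 3.4e-05) with shRNA1 and was at 0.31 ± 0.33 (edgeR adjusted p = 0.583) with shRNA2, a difference of 5.46 ± 0.24 (edgeR adjusted p = 3.6e-05). LTB, a membrane cytokine that triggers the noncanonical pathway, had 31.1 and 30.2 CPM with shRNA1 and 2.63 and 2.81 CPM with shRNA2, against 1.61 and 1.83 CPM in scramble libraries. It rose by 4.03 ± 0.18 (edgeR adjusted p = 3.4e-05) with shRNA1. With shRNA2 the libraries lay above scramble by 0.56 ± 0.18 (edgeR adjusted p = 0.0451), a call lost without any 1 of the 4 libraries (0.48 to 0.63, edgeR adjusted p = 0.0977 to 0.212). The hairpins of MM1.S differed by 3.48 ± 0.17 (edgeR adjusted p = 4.7e-05). LTB and MMP9 had too few reads in H929 to be tested. There LTB had 23 and 9 reads with shRNA1 against 6 and 3 in its scramble, and 1 and 2 with shRNA2 against 5 and 4 in its scramble. MMP9 had 5 and 2 reads with shRNA1 against 6 and 7 in its scramble, and 0 and 0 with shRNA2 against 3 and 1 in its scramble. Of 5 myeloid markers, the integrin gene ITGAM moved with these genes, with 463 and 478 reads with shRNA1 and 41 and 30 with shRNA2, against 20 and 46 in scramble, while CD14, LYZ, CSF1R and MPO had 0 to 12 reads in every MM1.S library. The markers summed to 19.6 to 24.1 CPM with shRNA1 and 1.57 to 2.24 CPM with shRNA2, against 1.28 to 2.43 CPM in scramble libraries, and their part in the result was not tested.

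TNFAIP2, a TNF-induced gene linked to membrane protrusions, had 9.06 and 9.48 CPM with shRNA1 and 1.71 and 1.73 CPM with shRNA2, against 0.440 and 0.809 CPM in scramble libraries. It rose by 3.76 ± 0.28 (edgeR adjusted p = 8.7e-05) with shRNA1 and 1.35 ± 0.30 (edgeR adjusted p = 0.0102) with shRNA2, with no overlap between groups. Between hairpins TNFAIP2 differed by 2.41 ± 0.26 (edgeR adjusted p = 4.5e-04). In H929, TNFAIP2 had 8.62 and 11.4 CPM with shRNA1, against 0.888 and 1.83 CPM in its scramble libraries (2.74 ± 0.47, limma adjusted p = 1.4e-04). TNFAIP2 stood at 0.154 and 0.494 CPM with shRNA2, against 0.232 and 0.116 CPM in its scramble libraries (0.49 ± 0.47, limma adjusted p = 0.432). The shRNA2 sets overlapped at 2 to 11 reads a library, and shRNA2 stood at -1.99 (limma adjusted p = 0.00347) against the other scramble group. The H929 hairpin effects differed by 2.25 ± 0.67 (limma adjusted p = 0.0132), a call lost without scramble for shRNA1 replicate 1, scramble for shRNA2 replicate 1, shRNA2 replicate 1 or shRNA1 replicate 2 (1.58 to 2.07, limma adjusted p = 0.0528 to 0.0728). ICAM1, the ligand of leukocyte integrins, had 117 and 118 CPM with shRNA1 and 49.1 and 49.2 CPM with shRNA2, against 27.3 and 36.95 CPM in scramble libraries. The groups did not overlap, and ICAM1 rose by 1.75 ± 0.15 (edgeR adjusted p = 1.5e-04) with shRNA1 and 0.51 ± 0.15 (edgeR adjusted p = 0.0312) with shRNA2. The shRNA2 call was lost without scramble replicate 1 or shRNA2 replicate 1 or 2 (0.32 to 0.55, edgeR adjusted p = 0.104 to 0.162). The hairpins differed by 1.24 ± 0.15 (edgeR adjusted p = 8.0e-04). In H929 it ran the other way, with 164 and 155 CPM with shRNA1, against 194 and 240.5 CPM in its scramble libraries (-0.59 ± 0.10, limma adjusted p = 1.6e-04). ICAM1 stood at 100.4 and 94.6 CPM with shRNA2, against 152 and 141 CPM in its scramble libraries (-0.74 ± 0.10, limma adjusted p = 3.3e-05). Neither set overlapped, and shRNA1 was at -0.15 (limma adjusted p = 0.215) against the other scramble group.

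The chemokine genes CCL3 and CCL4 fell with shRNA2 in both lines. CCL4 had 22.0 and 20.1 CPM with shRNA1 and 2.85 and 2.33 CPM with shRNA2, against 5.28 and 9.43 CPM in scramble libraries. It rose with shRNA1 (1.40 ± 0.25, edgeR adjusted p = 0.00404) and fell with shRNA2 (-1.61 ± 0.28, edgeR adjusted p = 0.00338), both without overlap, a difference of 3.01 ± 0.28 (edgeR adjusted p = 2.8e-04). In H929, CCL4 had 30.4 and 69.9 CPM with shRNA1, against 45.5 and 51.1 CPM in its scramble libraries (-0.22 ± 0.26, limma adjusted p = 0.496). CCL4 stood at 15.1 and 11.0 CPM with shRNA2, against 59.2 and 40.6 CPM in its scramble libraries (-2.08 ± 0.26, limma adjusted p = 1.0e-05). The shRNA1 libraries lay on either side of their scramble libraries, the shRNA2 libraries well below theirs, and the effects differed by 1.86 ± 0.37 (limma adjusted p = 7.2e-04). CCL3 had 179 and 223 CPM with shRNA1 and 137 and 162 CPM with shRNA2, against 210.2 and 314 CPM in scramble libraries. It fell with shRNA2 (-0.91 ± 0.21, edgeR adjusted p = 0.0118), a call lost without shRNA2 replicate 1 (-0.77, edgeR adjusted p = 0.0885), and was at -0.50 ± 0.21 (edgeR adjusted p = 0.0958) with shRNA1, or -0.49 (edgeR adjusted p = 9.3e-05) with the block. In H929, CCL3 had 183 and 256 CPM with shRNA1, against 249.5 and 222 CPM in its scramble libraries (-0.28 ± 0.14, limma adjusted p = 0.111). CCL3 stood at 119 and 96.3 CPM with shRNA2, against 277 and 208 CPM in its scramble libraries (-1.32 ± 0.14, limma adjusted p = 2.1e-06), a difference between effects of 1.04 ± 0.20 (limma adjusted p = 5.6e-04). Against the other scramble group, shRNA1 was at -0.43 (limma adjusted p = 0.0151). Both genes have near-identical copies that are counted apart, CCL3L3 and CCL4L2, so their counts are uncertain. In MM1.S CCL4L2 had 1455 to 2073 reads with shRNA1 and 483 to 489 with shRNA2, against 555 to 812 in scramble. CCL3L3 had 4482 to 4628 and 3868 to 4432, against 7000 to 8733. In H929 CCL3L3 had 325 to 465 reads with shRNA1, against 691 to 830 in its scramble. With shRNA2 it had 278 to 291, against 504 to 636. CCL4L2 had 105 to 204 against 293 to 352, and 67 to 83 against 114 to 181. These reads are not scaled to library size. Other cell markers also moved with shRNA2. In H929 the 5 T cell markers summed to 24.3 to 32.0 CPM with shRNA2, against 7.06 to 8.0 CPM in its scramble. CD3E had 607 and 534 of these reads with shRNA2 against 131 and 118, while CD3D was at 0 in all 4 libraries and CD3G and CD2 had at most 2 reads. In MM1.S the 4 stromal markers summed to 0.281 to 0.307 CPM with shRNA2, against 2.35 to 2.99 CPM in scramble. Their part in the shRNA2 results was not tested.

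SOD2, a mitochondrial superoxide dismutase induced by NF-kB, had 42.6 and 41.0 CPM with shRNA1 and 39.8 and 35.6 CPM with shRNA2, against 51.6 and 47.2 CPM in scramble libraries. It overlaps another annotated protein-coding gene of the same name, and the part of this in its counts was not tested. All knockdown libraries lay below the scramble libraries, at -0.36 ± 0.12 (edgeR adjusted p = 0.0523) with shRNA1, or -0.36 (edgeR adjusted p = 6.0e-04) with the block. With shRNA2 the call was -0.50 ± 0.12 (edgeR adjusted p = 0.0162), lost without scramble replicate 1 or shRNA2 replicate 1 or 2 (-0.55 to -0.41, edgeR adjusted p = 0.0776 to 0.128). In H929, SOD2 had 58.1 and 68.2 CPM with shRNA1, against 57.7 and 56.7 CPM in its scramble libraries (-0.02 ± 0.09, limma adjusted p = 0.866). SOD2 stood at 69.1 and 68.3 CPM with shRNA2, against 73.6 and 73.2 CPM in its scramble libraries (-0.25 ± 0.09, limma adjusted p = 0.0358). The shRNA2 call was lost without any 1 of the 4 libraries (-0.28 to -0.23, limma adjusted p = 0.0753 to 0.194), and shRNA2 was at 0.23 (limma adjusted p = 0.0623) against the other scramble group. CD83, a maturation marker of B cells and dendritic cells, had 1.68 and 2.44 CPM with shRNA1 and 1.53 and 0.723 CPM with shRNA2, against 0.770 and 0.845 CPM in scramble libraries. It rose with shRNA1 (1.23 ± 0.39, edgeR adjusted p = 0.0402), a call lost without scramble replicate 1 or 2 or shRNA1 replicate 2 (0.97 to 1.26, edgeR adjusted p = 0.0819 to 0.159). In H929, CD83 had 0.982 and 2.07 CPM with shRNA1, against 1.78 and 1.95 CPM in its scramble libraries (-0.52 ± 0.32, limma adjusted p = 0.187). CD83 stood at 3.08 and 3.91 CPM with shRNA2, against 1.97 and 2.60 CPM in its scramble libraries (0.45 ± 0.32, limma adjusted p = 0.275). CD83 was at -0.91 (limma adjusted p = 0.0206) with shRNA1 and 0.84 (limma adjusted p = 0.0473) with shRNA2 against the other scramble group. EBI3, a subunit of heterodimeric cytokines, was tested in H929 alone and rose with shRNA1 (0.88 ± 0.35, limma adjusted p = 0.0433), a call lost without any 1 of the 4 libraries (0.76 to 0.99, limma adjusted p = 0.0737 to 0.163). TNF, the cytokine that gives the pathway its classical stimulus, had 0 to 2 reads in every library and was not tested.

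Across the 4 hairpin comparisons, 2 members were called in none, 14 in 1, 10 in 2, 7 in 3 and 4 in all 4 (5.41%, 37.8%, 27.0%, 18.9% and 10.8%). Of the 20272 genes tested in any, 25.59% were called in none, 28.16% in 1, 23.68% in 2, 14.02% in 3 and 8.549% in all 4. NFKB2, ICAM1 and CCL4 were called in both directions. With shRNA1, 9 members were called higher in both lines, which is 45.0% of the 20 in MM1.S and 64.3% of the 14 in H929: RELB, NFKBIA, NFKBIZ, TRAF3, TRAF6, BIRC3, TAB2, IKBKB and TNFAIP2. Over all genes the shares were 50.6% of those called higher in MM1.S and 34.3% of those in H929. With shRNA2, 5 were called higher in both lines (45.5% of 11 in MM1.S and 71.4% of 7 in H929) and 4 lower in both (80.0% of 5 in MM1.S and 44.4% of 9 in H929). Over all genes these shares were 53.8% and 43.7% for higher calls, and 62.4% and 53.0% for lower calls. The 5 were NFKB2, REL, TRAF6, IKBKB and SPATA2, and the 4 were TNFAIP3, CCL3, CCL4 and SOD2. The authors' deposited tables, computed from the same libraries, called 23 members higher and 4 lower for shRNA1 in MM1.S. For shRNA2 they called 15 higher and 8 lower. For H929 the authors' deposited tables gave 11 higher and 5 lower for shRNA1, then 6 higher and 7 lower for shRNA2. The share of all genes that the authors called was not computed, so their counts stand without a background.

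The effect of each hairpin was then compared between the lines, by a test of the difference of the log2 fold changes (MM1.S minus H929). For shRNA1, 13 of 36 members had a more positive effect in MM1.S and 1 a more negative one by limma, where 10.4% and 11.0% of all 20370 genes were called. The 13 include MMP9 (6.58 ± 0.60) and LTB (2.60 ± 0.55), which passed the filter only through MM1.S, so their values are a description. Of the 33 members tested in each line, 11 were more positive and 1 more negative, where 11.8% and 12.5% of 15761 such genes were called. Of these, ICAM1 (2.36 ± 0.19, limma adjusted p = 7.9e-06), TRAF1 (2.25 ± 0.19, limma adjusted p = 8.7e-06) and REL (2.18 ± 0.27, limma adjusted p = 1.3e-04) differed most. NFKB2 differed by 0.93 ± 0.17 (limma adjusted p = 0.00175), NFKBIE by 0.99 ± 0.20 (limma adjusted p = 0.00378), NFKBIA by 0.83 ± 0.16 (limma adjusted p = 0.00242), BCL3 by 1.02 ± 0.23 (limma adjusted p = 0.00694) and TNFAIP3 by 0.81 ± 0.16 (limma adjusted p = 0.00294). MAP3K14 was the member with the more positive effect in H929 (-1.30 ± 0.17, limma adjusted p = 2.2e-04). BIRC3, called higher with shRNA1 in both lines, did not differ detectably (-0.13 ± 0.30, limma adjusted p = 0.789), and the other H929 scramble gave a more positive effect in H929 (limma adjusted p = 0.0263). For shRNA2, 6 members had a more positive effect in MM1.S and 1 a more negative one, where 4.34% and 5.41% of all genes were called. The 6 include LTB, again a description (1.99 ± 0.55), and of the 33 members tested in each line 5 were more positive and 1 more negative, where 5.16% and 6.06% of such genes were called. The 5 were ICAM1 (1.29 ± 0.19, limma adjusted p = 0.00158), NFKBIE (1.27 ± 0.20, limma adjusted p = 0.00243), NFKBIA (0.89 ± 0.16, limma adjusted p = 0.00399), REL (0.93 ± 0.27, limma adjusted p = 0.0454) and TRAF1 (0.66 ± 0.19, limma adjusted p = 0.0420), with NFKBIZ in the other direction (-0.74 ± 0.22, limma adjusted p = 0.0475).

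Of the 14 calls for shRNA1, 11 held without any 1 library, and TNIP1, CCL4 and CD83 did not. TNIP1 was lost without MM1.S scramble replicate 1, MM1.S shRNA1 replicate 2, H929 scramble for shRNA1 replicate 2 or H929 shRNA1 replicate 2 (0.44 to 0.48, limma adjusted p = 0.0983 to 0.146). CCL4 was lost without MM1.S scramble replicate 1, MM1.S shRNA1 replicate 1, H929 shRNA1 replicate 1 or H929 scramble for shRNA1 replicate 2 (1.09 to 1.62, limma adjusted p = 0.0520 to 0.0914). CD83 was lost without MM1.S scramble replicate 1 or 2, MM1.S shRNA1 replicate 2, H929 scramble for shRNA1 replicate 1 or 2 or H929 shRNA1 replicate 1 (1.20 to 1.77, limma adjusted p = 0.0620 to 0.171). Of the 7 for shRNA2, ICAM1, NFKBIE and NFKBIA held, and these were also the 3 positive calls with no filter on low values and by edgeR on recovered reads. REL was lost without MM1.S scramble replicate 1, MM1.S shRNA2 replicate 1, H929 scramble for shRNA2 replicate 1 or 2 or H929 shRNA2 replicate 1 or 2 (0.71 to 1.02, limma adjusted p = 0.0953 to 0.166). TRAF1 was lost without MM1.S scramble replicate 1, MM1.S shRNA2 replicate 1 or 2, H929 scramble for shRNA2 replicate 1 or 2 or H929 shRNA2 replicate 1 or 2 (0.56 to 0.76, limma adjusted p = 0.0583 to 0.156). NFKBIZ was lost without MM1.S scramble replicate 1 or 2, MM1.S shRNA2 replicate 1 or 2, H929 shRNA2 replicate 1 or 2 or H929 scramble for shRNA2 replicate 2 (-0.84 to -0.54, limma adjusted p = 0.0584 to 0.181), and LTB without any 1 of the 8 libraries (1.79 to 2.19, limma adjusted p = 0.0536 to 0.133). For shRNA2 the count of more positive effects was 3 without each of MM1.S scramble replicate 1, MM1.S shRNA2 replicate 1, H929 scramble for shRNA2 replicate 1 and H929 shRNA2 replicate 1 or 2. Against the other H929 scramble group, shRNA1 gave 8 more positive and 5 more negative (12.4% and 11.7% of all genes) and shRNA2 gave 14 and 1 (9.02% and 11.3% of all genes). NFKB2 for shRNA1 was then at 0.21 (limma adjusted p = 0.409), NFKBIA at 0.17 (limma adjusted p = 0.464), BCL3 at 0.32 (limma adjusted p = 0.336), TNFAIP3 at 0.40 (limma adjusted p = 0.0879) and TNIP1 at 0.18 (limma adjusted p = 0.486), while REL, NFKBIE, TRAF1, LTB, CCL4, CD83, ICAM1 and MMP9 were still called. For shRNA2 REL was then at 0.39 (limma adjusted p = 0.346) and NFKBIZ at -0.33 (limma adjusted p = 0.324). With the replicate block, shRNA1 gave 13 more positive and 3 more negative (15% and 16.4% of all genes), and shRNA2 gave 9 and 3 (9.46% and 9.44% of all genes).

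**Figure D5:**
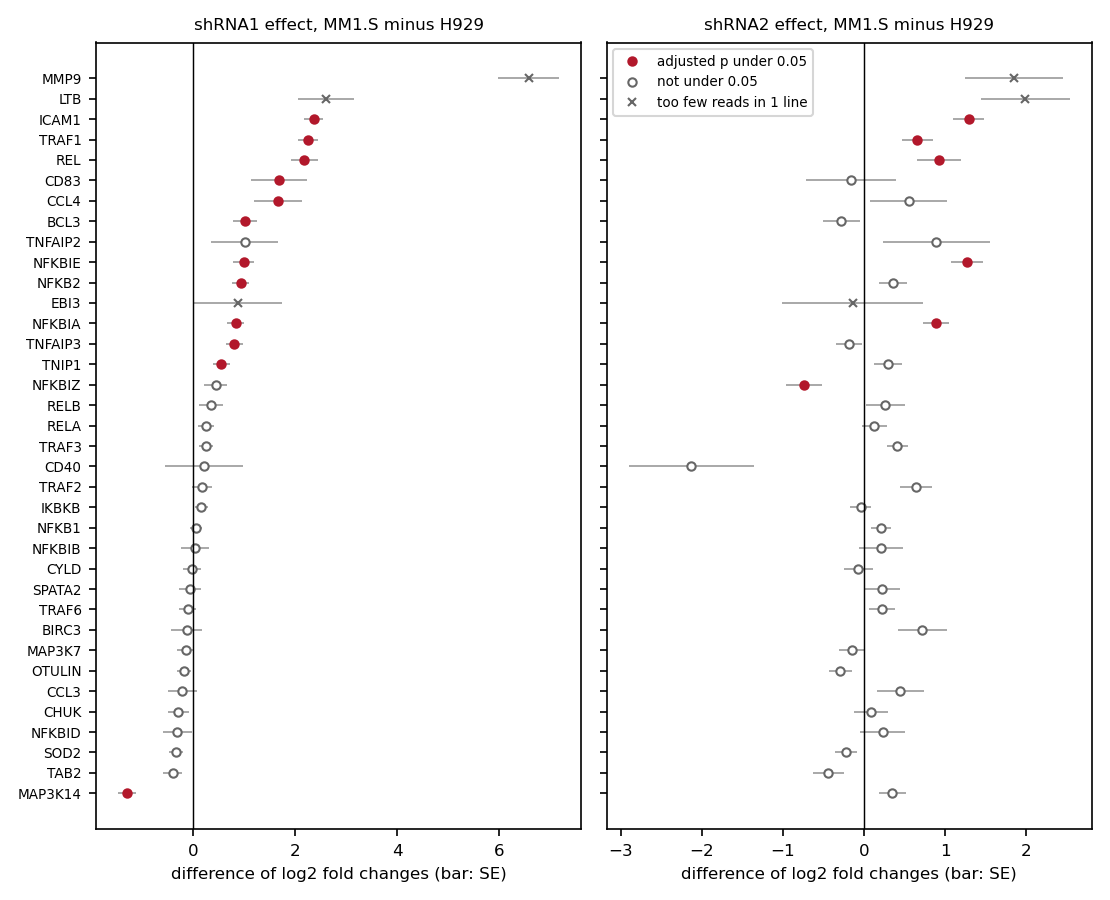
Difference of the log2 fold changes between the lines (MM1.S minus H929) for the 36 members tested, with shRNA1 left and shRNA2 right, points at the estimate and bars of 1 SE; filled points have an adjusted p under 0.05, and crosses are members with too few reads in 1 line (MMP9, LTB and EBI3). Among the circles, ICAM1 has the highest shRNA1 difference, 2.36, and MAP3K14 the lowest, -1.30.

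Other genes of the pathway were taken from a list of 53, of which 47 were tested in MM1.S and 42 in H929. The list was made with earlier results of these data known. Its counts are therefore a description, not independent support for those of the members. With shRNA1 in MM1.S 18 were called higher and 6 lower (38.3% and 12.8%, against 17.8% and 19.7% of all genes), with a median of 0.30, against 0.00 for all genes. With shRNA2 6 were higher and 15 lower (12.8% and 31.9%, against 14.9% and 21.7% of all genes), with a median of -0.05, against -0.03 for all genes. The 13 target genes of the list tested in MM1.S moved apart between hairpins: edgeR called 12 higher with shRNA1 than with shRNA2 and 1 not, where 20.4% of all genes were called higher. In H929 shRNA1 gave 10 higher and 13 lower (23.8% and 31.0%, against 25.7% and 27.7% of all genes), shares near those of all genes. With shRNA2 3 were higher and 11 lower (7.14% and 26.2%, against 18.0% and 25.0% of all genes). The H929 medians were 0.00 and -0.01, against -0.01 and -0.02 for all genes. BCL2A1, a survival gene of the BCL2 family, stood at 2.83 with shRNA1 and 1.87 with shRNA2 in MM1.S. IL2RG, the common cytokine receptor chain, stood at 1.13 and 0.82, and TNIP2, a partner of TNFAIP3, at 0.96 and 0.79, all called by edgeR with both hairpins. TNFRSF1B, a TNF receptor, was lower with both hairpins in both lines, at -0.73 and -1.14 in MM1.S and -0.65 and -0.67 in H929. TNFRSF17, a plasma cell receptor that signals to NF-kB, was lower in MM1.S, at -1.40 and -0.67. TNFRSF13C, another receptor of that ligand family, and CCL5, a chemokine gene, were lower in H929, at -2.25 and -2.02 and at -1.43 and -1.78. BCL2L1, another survival gene of the BCL2 family, was the 1 gene of the list called higher with both hairpins in H929, at 0.62 and 0.37.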

How the data were processed

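RNA-seq of 14 libraries (6 MM1.S, 8 H929) was read from 2 deposited tables. Per the submitters' processing notes, STAR 2.5.3a, DESeq2 1.24.0 and GRCh38 (hg38) were used. The MM1.S table holds read counts per gene, as deposited. The H929 table holds a signal that the authors made by scaling counts: divided by what 1 read is worth, 100% of values were whole within 0.01 and gave back the reads. The authors' deposited comparison tables give log2 fold changes and p-values from their own fits. Each table had 58069 rows, and 18 with repeated IDs were left out. Columns of shRNA2 in both lines, and 1 of the scramble for shRNA1 in H929, were matched to samples by elimination. Of the gene IDs, 57447 were in GENCODE 29, which gave exon lengths for RPKM.

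MM1.S counts were tested with edgeR 4.0.16 (quasi-likelihood, TMM, filterByExpr with a minimum count of 10, all 6 libraries, 17820 genes) in R 4.3.3. H929 values were tested with limma 3.58.1 on log2(value + 1) for 18213 genes at 10 or more in at least 2 libraries. Line differences used limma on 20370 genes. Fold changes from limma are on the log2(value + 1) scale, which understates changes of low genes. P-values were Benjamini-Hochberg adjusted over all genes tested, and the fits were tested on simulated data. Alternatives were DESeq2 1.42.0, other scalings, no filter, a pseudocount of 10, edgeR on recovered H929 reads, only the compared groups, a replicate block, each library left out, and the other H929 scramble group.

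The replicate number from the labels paired the MM1.S libraries: deviations of same-numbered libraries from their group means correlated at 0.571, 0.499 and 0.769 over 11200 genes. In H929 they correlated at -0.167 to 0.204 over 10944 genes. The members and lists were chosen with earlier results of these data known. All 37 members are accounted for, with values in every library for those called in at least 2 of the 4 hairpin comparisons or in a line difference.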

Additional observations from a re-analysis of the deposited data

Results flagged for a closer look

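A test of the difference between the lines singled out 14 members for shRNA1 and 7 for shRNA2. Over all genes 10.4% were called positive and 11.0% negative for shRNA1, and 4.34% and 5.41% for shRNA2. Of the calls, 11 for shRNA1 and 3 for shRNA2 held without any 1 library. Against the other H929 scramble group, NFKB2, NFKBIA, BCL3, TNFAIP3 and TNIP1 were no longer called for shRNA1, nor REL and NFKBIZ for shRNA2. Each difference is the log2 fold change in MM1.S minus that in H929, from 1 limma fit over the libraries of both lines. For shRNA1 it was 2.36 for ICAM1, 2.25 for TRAF1, 2.18 for REL, 1.69 for CD83 and 1.67 for CCL4. It was 1.02 for BCL3, 0.99 for NFKBIE, 0.93 for NFKB2, 0.83 for NFKBIA, 0.81 for TNFAIP3 and 0.55 for TNIP1. MAP3K14 had the 1 negative difference for shRNA1, -1.30, with a rise in H929 (1.59 ± 0.13, limma adjusted p = 4.7e-08) and no call in MM1.S (0.29 ± 0.12, edgeR adjusted p = 0.0855).

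For shRNA2 the difference was 1.29 for ICAM1, 1.27 for NFKBIE, 0.93 for REL, 0.89 for NFKBIA, 0.66 for TRAF1 and -0.74 for NFKBIZ. MMP9 at 6.58 for shRNA1, and LTB at 2.60 for shRNA1 and 1.99 for shRNA2, had too few reads in H929 to be tested there and passed the filter only through MM1.S, so their differences are descriptions. ICAM1 was called in opposite directions in the lines with both hairpins, higher in MM1.S and lower in H929. Its MM1.S shRNA2 call was lost without scramble replicate 1 or shRNA2 replicate 1 or 2 (0.32 to 0.55), and with only the compared groups in the fit. Its H929 shRNA1 call was lost against the other scramble group. ZBP1 was reduced further in MM1.S, to 18.5% and 12.4% of scramble, than in H929, to 45.1% and 36.3%, and the part of this in the differences was not tested.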

How the results depend on the processing

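Of 3482 values of single members recomputed with another setting, 3159 kept their side of the threshold. Without a change of direction, 218 lost a call and 93 gained one, and 12 turned. A turn was counted only for a value called in the main fit or with the other setting. The 3159 may therefore include uncalled values that changed direction. The 12 came with the H929 scramble group of the other hairpin, chosen after seeing the data. With it, shRNA1 in H929 gave 0.43 for NFKB2, -0.37 for REL, -0.09 for CHUK and 0.04 for TNIP1. For shRNA2 it gave -0.34 for NFKB2, -0.73 for RELB, -0.41 for TRAF1, -0.46 for TAB2, -0.73 for CD40, -1.99 for TNFAIP2 and 0.23 for SOD2, and CD40 stood at -2.64 in the line difference for shRNA1. Member counts with this scramble were 8 lower for shRNA1 in H929, 4 higher and 16 lower for shRNA2, 8 positive and 5 negative line differences for shRNA1, and 14 positive for shRNA2. Over all genes 32.4% were lower for shRNA1 in H929, and 17.6% higher and 21.9% lower for shRNA2. The line differences of all genes were positive in 12.4% and negative in 11.7% for shRNA1, and positive in 9.02% for shRNA2. The cause was not tested.

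Counts lower in MM1.S with shRNA1 were 1 by DESeq2, 1 with no filter and 6 with the replicate block. Over all genes the lower calls were 3357 of 37067 by DESeq2, 4115 of 37067 with no filter and 30.9% with the block. With the block, 9 were lower with shRNA2 and 5 lower with shRNA1 than with shRNA2, where 32% and 28.7% of all genes were. Under it 3 line differences were negative for each hairpin, where 16.4% (shRNA1) and 9.44% (shRNA2) of all genes were. DESeq2 called 1 member lower with shRNA1 than with shRNA2, where it called 2746 of 37067 genes lower. The replicate block left the H929 counts within 1.5 times, although the replicate numbers did not pair the H929 libraries, and SPATA2 with shRNA1 was the call lost in H929 under it. With no filter, 3 members were lower in H929 with shRNA1, and for shRNA2 3 line differences were positive and 0 negative. Over all genes these were 4626 of 39615 lower, and 498 positive and 703 negative of 43045. With edgeR on recovered reads, 3 line differences were positive for shRNA2, where 558 of 20541 genes were.

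Leaving out 1 library at a time gave 17 to 18 higher and 0 to 1 lower with shRNA1 in MM1.S, 7 to 10 higher and 2 to 5 lower with shRNA2, and 12 to 14 higher and 0 to 1 lower between hairpins. The line differences counted 10 to 12 positive and 1 to 1 negative for shRNA1, and 3 to 5 positive and 0 to 1 negative for shRNA2. In H929 the ranges were 10 to 12 higher and 4 to 6 lower with shRNA1, 4 to 6 higher and 5 to 8 lower with shRNA2, 8 to 11 higher and 2 to 4 lower between hairpin effects, and 11 to 14 higher and 2 to 3 lower between scrambles. A group left with 1 library was assumed to vary like the others. The number of all genes called also changed with the library left out, so these ranges are not read against a background. Low reads limit TNF, EBI3, LTB, MMP9, CD40 and TNFAIP2, and with 2 libraries a group, a value that missed the threshold does not show that a gene did not change.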
